A study of Homo sapiens with 21 samples.

Results

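The 30 genes described here make or regulate cholesterol and fatty acids, and they were taken from the 60668 gene rows of the deposited count tables by symbol. They were ordered into 4 roles: 7 genes of the mevalonate arm, 11 of the sterol arm, 5 regulators and transport genes, and 7 of the fatty acid arm. All 30 passed the filter on low counts. The counts come from HCC1806, an established human triple-negative breast cancer cell line grown as adherent monolayers to near confluence, in 7 groups of 3 polyA-selected RNA libraries. One table holds a line labelled as overexpressing the splicing factors SRSF2, SRSF3 and SRSF7 jointly (3xSR), a line labelled as overexpressing the transcription factor MYC (MYC-OE), and their control (3xCTL). A second table holds lines labelled as overexpressing 1 of these splicing factors each (SRSF2-OE, SRSF3-OE or SRSF7-OE), with a control that carries a single plasmid (1xCtrl). What vector 3xCTL carries, and how many clones stand behind each line, is not given in the sources used here. The question put to the data was how the lipid synthesis genes differ between each line and its own control, and between the lines.

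Cholesterol is built from acetyl-CoA through mevalonate and farnesyl diphosphate to squalene, which is closed into a ring and trimmed to cholesterol. The transcription factors SREBP-1 and SREBP-2, made from SREBF1 and SREBF2, raise transcription of the enzymes when membranes are poor in sterol. INSIG1 and INSIG2 hold the SREBP precursors in the endoplasmic reticulum when sterol is plentiful, and INSIG1 is itself a target of SREBP. SREBP-1 mainly serves the fatty acid genes and SREBP-2 mainly the cholesterol genes, and breast cancer cells commonly make much of their own fat.

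The sequences upstream of 6 members are shown because SREBP acts at such promoters together with NF-Y, a factor that binds CCAAT. The RefSeq table (build GRCh38.p14) held 26 of the 30 members, without FDFT1, SQLE, ACAT2 and FASN. Each window of 250 bases before the RefSeq start was searched on both strands for 3 motifs: TCACNCCAC (a sterol element), CACGTG (an E-box) and CCAAT. Matches of different motifs did not overlap. Capitals mark a match on either strand, so that ATTGG is CCAAT read from the other strand. The stretches printed stop before the first base of the gene in the GENCODE annotation, so some matches of the windows lie outside them, and the INSIG2 window held none.
SREBF2 (GRCh38.p14 chr22:41832855-41833078, plus strand): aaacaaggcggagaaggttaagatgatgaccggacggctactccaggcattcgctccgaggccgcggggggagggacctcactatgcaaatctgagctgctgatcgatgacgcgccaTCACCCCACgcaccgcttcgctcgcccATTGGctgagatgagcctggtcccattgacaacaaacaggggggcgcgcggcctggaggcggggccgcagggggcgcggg
HMGCS1 (chr5:43313513-43313662, minus strand): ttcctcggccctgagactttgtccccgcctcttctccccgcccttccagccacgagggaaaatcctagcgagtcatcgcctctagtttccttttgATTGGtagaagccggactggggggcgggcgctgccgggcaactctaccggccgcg
INSIG1 (chr7:155297628-155297775, plus strand): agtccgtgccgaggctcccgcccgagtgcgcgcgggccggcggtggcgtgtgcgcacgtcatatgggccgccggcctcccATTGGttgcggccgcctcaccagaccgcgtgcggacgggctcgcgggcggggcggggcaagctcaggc
INSIG2 (chr2:118088221-118088451, plus strand): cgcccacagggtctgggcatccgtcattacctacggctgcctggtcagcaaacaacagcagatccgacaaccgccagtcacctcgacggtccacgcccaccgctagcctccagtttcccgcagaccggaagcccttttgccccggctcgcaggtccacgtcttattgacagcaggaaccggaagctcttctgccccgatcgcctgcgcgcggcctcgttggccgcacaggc
STARD4 (chr5:111512591-111512785, minus strand): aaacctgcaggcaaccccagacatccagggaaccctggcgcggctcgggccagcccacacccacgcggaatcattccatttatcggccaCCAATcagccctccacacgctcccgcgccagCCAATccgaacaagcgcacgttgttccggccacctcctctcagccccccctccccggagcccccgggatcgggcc
SCD (chr10:100346983-100347123, plus strand): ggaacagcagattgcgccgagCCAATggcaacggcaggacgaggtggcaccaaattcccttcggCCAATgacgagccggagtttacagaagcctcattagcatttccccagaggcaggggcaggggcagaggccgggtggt
CCAAT stood in 17 of the 26 member windows (65.4%), against 33.0% of all 27305 promoter windows of the same length. The sterol element letters stood in 1 of 26, SREBF2 at 133 to 125 bases before the start, against 0.875% of all windows. CACGTG stood in 2 of 26, SC5D and INSIG1, against 6.49% of all windows. These matches are a description of letters and were not tied to the expression values.

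Total counts ranged from 143269192 to 303323552 a library, so every member was far above the limits of counting. In the lines labelled SRSF3-OE, SRSF7-OE and MYC-OE the named gene was higher than in the control by edgeR, with log2 fold changes of 0.49, 0.26 and 0.90. SRSF2 was not called higher in the libraries labelled SRSF2-OE (398.5 ± 19.6 CPM, SD, n = 3, against 444.2 ± 31.5) or 3xSR (385.6 ± 12.04 against 403.2 ± 18.3), so directions are given for the libraries as labelled. The SRSF2-OE libraries had raised SRSF3 (0.30) and SRSF7 (0.24). In 3xSR, SRSF3 was at 507.0 ± 6.99 CPM against 408.7 ± 30.6 in 3xCTL (0.31) and SRSF7 at 394.7 ± 10.2 against 291.8 ± 12.9 (0.44), both called higher. MYC itself was also raised in 3xSR (0.75). CPM are counts scaled to the TMM-adjusted library size. All 7 markers of basal-like breast carcinoma lines were present in all 21 libraries, from KRT17 at 45.3 CPM or more to KRT5 at 1600.0 or more. Of the fat cell markers, LEP was at 0 in 21 libraries, ADIPOQ in 19 and CIDEC in 2. PLIN1, the other, was counted in every library, at 0.15 to 0.47 CPM. The fibroblast markers LUM and COL1A1 were also counted in every library, at up to 39.7 and 15.7 CPM. The other fibroblast markers COL1A2, DCN and PDGFRB reached at most 0.315, 0.507 and 0.994 CPM. Of the immune markers, CD14 reached 2.63 CPM, PTPRC 0.539 and CD3E 0.025. Of the hormone receptors, ESR1 was at 6.49 to 11.48 CPM, and PGR was at 0 in 12 libraries and at most 1.455 CPM.

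The libraries 1xCtrl replicate 2, 3xCTL replicate 2 and SRSF7-OE replicate 2 stood apart from their groups along transcript GC content, and these touch the GC-rich members most. The difference between GC-rich genes (above 57.4% in the second table) and GC-poor ones (below 41.2%), on the log2 scale within the group, was 0.59 in 1xCtrl replicate 2, -0.36 in 3xCTL replicate 2 and -0.20 in SRSF7-OE replicate 2, and -0.40 in 1xCtrl replicate 3. FASN, the fatty acid synthase, has the highest transcript GC content of the members (65.3%), and its level was 150.5, 369 and 97.0 CPM in 1xCtrl and 340.5, 163 and 288 CPM in 3xCTL. Replicate 2 was thus the highest of the 1xCtrl libraries and the lowest of 3xCTL. Over the 30 members, the deviation of a library from the other 2 of its group followed GC content with Pearson's r of 0.85 in 1xCtrl replicate 2 and -0.88 in 3xCTL replicate 2 (across genes, which share the library and are not independent). For this reason values after removal of each library's GC trend, and values without the 3 libraries numbered 2 named here, are given beside the counts.

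**Figure D1:**
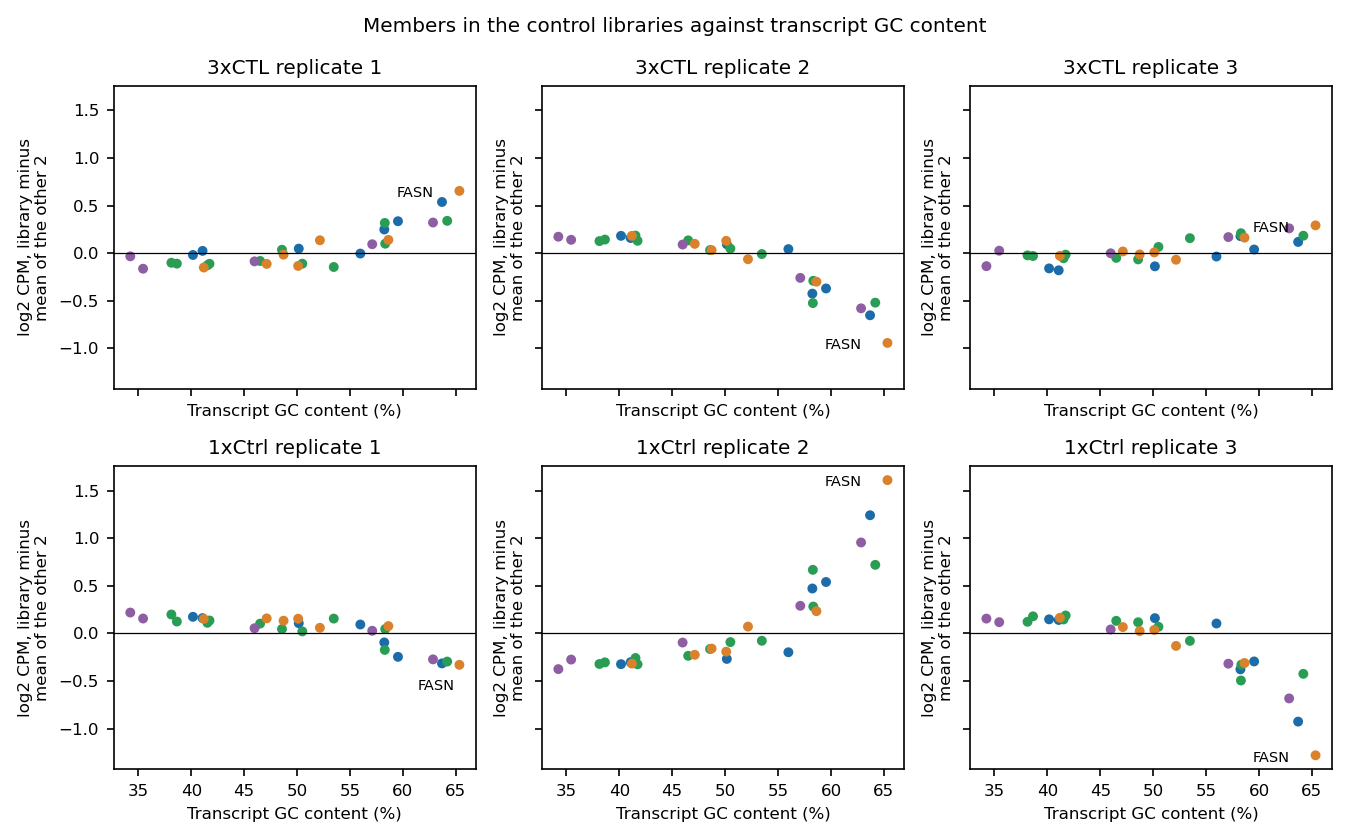
Each point is 1 of the 30 members, coloured by role (blue mevalonate arm, green sterol arm, purple regulators and transport, orange fatty acid arm), with transcript GC content in percent on the horizontal axis and log2 CPM of the library minus the mean of the other 2 control libraries on the vertical axis. GC-rich members lie high in 1xCtrl replicate 2 and low in 3xCTL replicate 2, with FASN at 1.61 and -0.94.

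Members were called in both directions in all lines but SRSF7-OE, where none was called lower, and each line had its own pattern. In 3xSR, 3 of 30 members were higher and 8 lower than in 3xCTL by edgeR's quasi-likelihood test at a Benjamini-Hochberg adjusted p under 0.05, while 15.3% and 13.7% of all genes tested were. For MYC-OE the counts were 7 higher and 3 lower, against a background of 18.0% and 17.3%. The libraries labelled SRSF2-OE had 9 higher and 6 lower members, with 11.6% and 11.9% of all genes. SRSF3-OE had 1 higher and 13 lower member calls, with 15.0% and 14.1% of all genes. SRSF7-OE had 6 higher and 0 lower, with 9.03% and 8.26% of all genes. At an unadjusted p under 0.05, 0 members were lower there, and DESeq2 likewise called 0 lower. The median log2 fold change of the 30 members was -0.12 in 3xSR, 0.00 in MYC-OE, 0.17 in SRSF7-OE, 0.02 in SRSF2-OE and -0.24 in SRSF3-OE, while that of all genes lay between -0.03 and 0.00. The 2 contrasts of the first table share 3xCTL and the 3 of the second share 1xCtrl, so their values are set side by side without an overlap count.

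**Figure D2:**
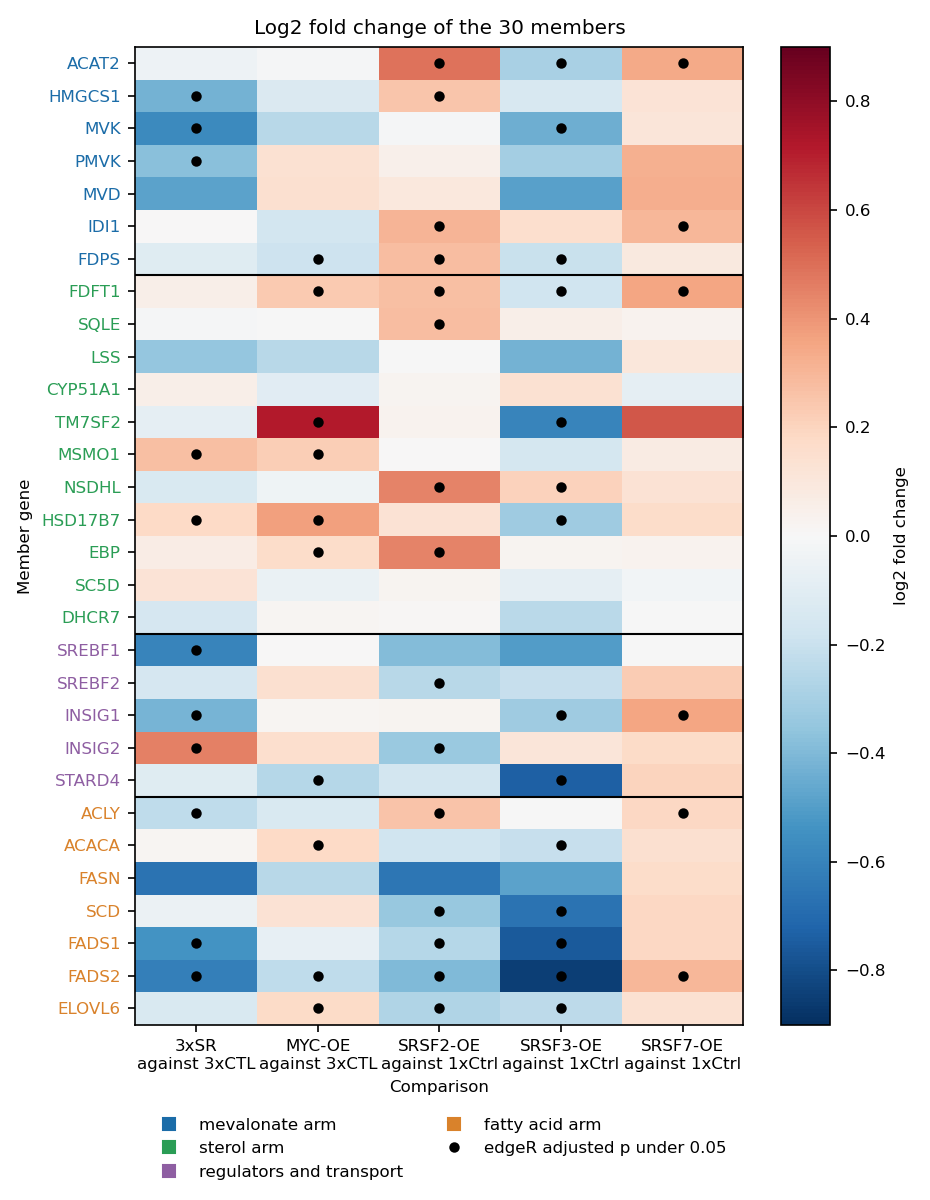
Rows are the 30 members grouped by role and columns the 5 comparisons of a line with its control, colour gives the log2 fold change and a dot marks an edgeR adjusted p under 0.05. The SRSF3-OE column holds 13 lower calls and 1 higher, the SRSF7-OE column 6 higher and none lower, and FADS2 carries a dot in every column.

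With each library's GC trend removed, SRSF3-OE had 1 higher and 17 lower members (20.2% and 18.0% of all genes), and SRSF7-OE 17 higher and 0 lower (15.1% and 13.6%). The same correction gave 4 higher and 12 lower in 3xSR (17.2% and 16.0%), 10 and 8 in MYC-OE (22.1% and 21.1%), and 9 and 8 in SRSF2-OE (16.7% and 17.0%). Without the 3 libraries that stand apart, the counts were 4 higher and 14 lower in 3xSR (19.4% and 19.1% of all genes) and 9 and 8 in MYC-OE (19.4% and 18.2%). They were 11 and 7 in SRSF2-OE (15.7% and 15.7%), 1 and 16 in SRSF3-OE (17.5% and 15.8%), and 14 and 0 in SRSF7-OE (16.7% and 12.6%). Of the libraries that stand apart, the first table holds 3xCTL replicate 2 alone. Leaving out that library is thus the same fit for 3xSR and MYC-OE, with 14 and 8 lower (4567 and 4366 of 23926 genes tested). Leaving out 1xCtrl replicate 2 alone gave 12 higher in SRSF7-OE (4110 of 25110 genes). Without 3xCTL replicate 1, 1 member was higher in 3xSR and 4 in MYC-OE (2661 and 3819 of 23762 genes). MYC-OE also had 4 higher without its replicate 1 or 2 (3460 of 23765 and 3349 of 23733 genes). It had 1 lower without its replicate 1 or 3 (3206 of 23765 and 3318 of 23731 genes). The share of members lower in SRSF3-OE and the share higher in SRSF7-OE stood above the background in each of these settings. Taken over all groups of a table, the GC-rich minus GC-poor difference was 0.24 and 0.34 in the remaining SRSF7-OE libraries. In the remaining 1xCtrl libraries it was -0.18 and -0.39. It was 0.26 and 0.25 in the remaining 3xCTL libraries, against -0.38, -0.18 and -0.29 in 3xSR. In SRSF2-OE it was 0.08, -0.01 and 0.09, above both remaining 1xCtrl libraries. For 3xSR, SRSF2-OE and SRSF7-OE, leaving out libraries is thus no check on GC content.

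Among the regulators, INSIG1 and INSIG2 moved in opposite directions in 3xSR. INSIG1, which retains the SREBP precursors, was at 52.7, 52.5 and 53.4 CPM in 3xSR and 67.8, 73.5 and 70.5 CPM in 3xCTL (log2 fold change -0.42, SE 0.06, adjusted p = 0.000155). INSIG2, its relative, was at 36.3, 35.9 and 38.4 CPM against 24.9, 28.7 and 27.2 CPM (0.45, SE 0.06, adjusted p = 0.000274). All 3xSR libraries lay below the control range for INSIG1 and above it for INSIG2, and both calls held under all 18 alternative settings. In MYC-OE neither gene passed the test: INSIG1 was at 73.3, 74.3 and 66.7 CPM and INSIG2 at 30.2, 31.5 and 28.2 CPM (0.15, adjusted p = 0.0877). INSIG2 was called higher there with the GC trend removed (0.25, against 0.29 in 3xSR) and without 3xCTL replicate 2 (0.20, adjusted p = 0.0175).

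In the second table INSIG1 fell in SRSF3-OE and rose in SRSF7-OE. Its levels were 53.7, 50.1 and 53.4 CPM in 1xCtrl, 43.2, 40.3 and 42.5 CPM in SRSF3-OE (-0.32, SE 0.05, adjusted p = 0.000606) and 68.3, 67.7 and 65.4 CPM in SRSF7-OE (0.36, SE 0.05, adjusted p = 0.000989). The 3 groups did not overlap. In the libraries labelled SRSF2-OE it was at 52.3, 54.3 and 53.6 CPM, overlapping the control, and was not called (adjusted p = 0.767). INSIG2 was lower there, at 26.8, 24.6 and 27.4 CPM against 35.4, 29 and 34.8 CPM in 1xCtrl (-0.33, SE 0.08, adjusted p = 0.00692), with no overlap. It was not called in SRSF3-OE (35.3, 35.6 and 35.8 CPM) or SRSF7-OE (36.0, 38.4 and 37.4 CPM), although with the GC trend removed it was called higher in SRSF7-OE (0.21, adjusted p = 0.00494).

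SREBF1, the gene of the fatty acid SREBP, was at 129, 149 and 135 CPM in 3xSR and 237, 156 and 231 CPM in 3xCTL (-0.60, SE 0.14, adjusted p = 0.0147). The groups did not overlap, but 3xCTL replicate 2 lay close to the 3xSR libraries. The call was lost without 3xCTL replicate 1, without 3xCTL replicate 3 and without 3xSR replicate 1 (adjusted p up to 0.0618), and the log2 fold change was -0.33 after GC trend removal. Elsewhere SREBF1 was not called in edgeR with TMM scaling, all libraries and no GC correction: it was at 201, 204 and 221 CPM in MYC-OE, and at 142, 251 and 118 CPM in 1xCtrl, whose replicate 2 lay above every library of the 3 single lines. SRSF2-OE was at 131, 123 and 136 CPM, SRSF3-OE at 113, 123 and 125 CPM and SRSF7-OE at 181, 138 and 192 CPM. SREBF1 in SRSF7-OE was 0.00 with all libraries and 0.53 without the libraries that stand apart (adjusted p = 0.000392). It was not called in SRSF7-OE with the GC trend removed. With the GC trend removed it was called lower in SRSF2-OE (-0.27, adjusted p = 0.00168) and SRSF3-OE (-0.25, adjusted p = 0.00206), and in SRSF3-OE also without 1xCtrl replicate 3 (-0.77, adjusted p = 0.0379). SREBF1 in MYC-OE was 0.00 on the log2 scale with all libraries and -0.16 without 3xCTL replicate 2 (adjusted p = 0.0472).

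Alternatives aside, SREBF2, the gene of the sterol SREBP, was called in 1 comparison with a control, lower in the libraries labelled SRSF2-OE. Its levels were 169.5, 160.2 and 165 CPM there against 198, 223 and 168 CPM (-0.25, SE 0.08, adjusted p = 0.0377), and SRSF2-OE replicate 1 overlapped 1xCtrl replicate 3. The call held in 9 of 18 settings and was lost without 1xCtrl replicate 1 or 2 or any SRSF2-OE library (adjusted p up to 0.153). SRSF7-OE, at 238, 226 and 227 CPM, lay above all 1xCtrl libraries without passing the test (adjusted p = 0.0707). SRSF3-OE (171, 169 and 171 CPM), 3xSR (199, 215 and 203 CPM against 237, 202 and 246) and MYC-OE (248, 257 and 253 CPM) did not pass either. With the GC trend removed SREBF2 was called higher in MYC-OE (adjusted p = 0.0025) and SRSF7-OE, and in SRSF7-OE also without 1xCtrl replicate 2. In 3xSR it was lower without 3xCTL replicate 2 (-0.23, adjusted p = 0.0012). It was lower in SRSF3-OE with upper-quartile scaling, total counts alone, the stricter filter, or without 1xCtrl replicate 3.

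STARD4, a carrier that moves cholesterol between membranes, fell most in SRSF3-OE. It was at 36.4, 34.5 and 35.7 CPM there and 64.8, 49.3 and 63.0 CPM in 1xCtrl (-0.73, SE 0.09, adjusted p = 6.08e-05), far outside the control range. In MYC-OE it was at 44.5, 47.5 and 39.4 CPM against 51.3, 56.5 and 48.9 CPM in 3xCTL (-0.25, SE 0.07, adjusted p = 0.0199). This smaller difference was -0.09 with the GC trend removed, and the call ended there and without MYC-OE replicate 1 or 3 (adjusted p up to 0.0900). In 3xSR STARD4 was -0.11 and not called, but -0.29 and called lower with the GC trend removed (adjusted p = 7.58e-05). STARD4 has the lowest transcript GC content of the members, 34.2%.

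In the mevalonate arm 4 of 7 genes were higher and none lower in the libraries labelled SRSF2-OE (11.6% and 11.9% of all genes). In 3xSR 3 of 7 were lower and none higher (13.7% and 15.3% of all genes). HMGCS1, the synthase that opens the arm with HMG-CoA, was at 299.8, 276 and 284 CPM in 3xSR against 380.1, 417 and 356 CPM (-0.42, SE 0.07, adjusted p = 0.000521). In SRSF2-OE it was at 379, 386 and 356 CPM against 339, 269 and 335 CPM (0.25, SE 0.08, adjusted p = 0.0355). Neither comparison overlapped, but the SRSF2-OE difference was 0.14 without the libraries that stand apart and was then not called. Without SRSF2-OE replicate 1 or 2 it was not called either (adjusted p up to 0.0948). In SRSF3-OE HMGCS1 was called lower only under alternatives: total counts alone, no filter, GC trend removed and without 1xCtrl replicate 2. With the GC trend removed it was also called lower in MYC-OE (adjusted p = 0.0419) and higher in SRSF7-OE (adjusted p = 0.0142).

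ACAT2, the cytosolic thiolase that joins acetyl-CoA units, had the highest member fold change in SRSF2-OE. Its levels were 102, 92.6 and 89.1 CPM in SRSF2-OE, 83.6, 90.8 and 81.4 CPM in SRSF7-OE, 70.6, 59.3 and 72.3 CPM in 1xCtrl and 55.3, 54.9 and 55 CPM in SRSF3-OE. The log2 fold changes were 0.49 (SE 0.08, adjusted p = 0.000732), 0.34 (SE 0.08, adjusted p = 0.0105) and -0.29 (SE 0.08, adjusted p = 0.0133). ACAT2 shares 2247 exon bases with genes on the opposite strand, TCP1 among them, and whether the counting used strand is not given in the sources used here. The same limit holds for all 14 members that share exon bases with genes on the opposite strand. Among them are HMGCS1 (703 bases), FDPS (693), IDI1 (643), LSS (570) and SREBF1 (556). In 3xSR and MYC-OE ACAT2 differed from 3xCTL by -0.05 and -0.01 and was not called.

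MVK, the mevalonate kinase, was lower in 3xSR and in SRSF3-OE. It was at 52.6, 54.8 and 54.7 CPM in 3xSR against 89.5, 65.5 and 86.6 CPM (-0.58, SE 0.10, adjusted p = 0.00121), with no overlap, and at 41.4, 41.3 and 43.6 CPM in SRSF3-OE against 53.9, 70.0 and 47.2 CPM (-0.44, adjusted p = 0.0145). The SRSF3-OE call was lost without any 1 of its own libraries (adjusted p up to 0.0844). PMVK, the next kinase and the lowest member by CPM per kilobase of transcript (4.10 in 3xCTL against 436.8 for SCD, the highest), was lower in 3xSR (-0.38, adjusted p = 0.0257). That call held in 11 of 18 settings, ended with the GC trend removed and without 3xCTL replicate 1 or 3 or any 3xSR library (adjusted p up to 0.134).

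IDI1, which isomerises isopentenyl diphosphate, rose in SRSF2-OE (0.30, adjusted p = 0.0122) and SRSF7-OE (0.30, adjusted p = 0.0173), with 146.3 CPM or more in all 6 of those libraries and 133.9 CPM or less in 1xCtrl. FDPS, the farnesyl diphosphate synthase, rose in SRSF2-OE (0.28, adjusted p = 0.0123) and fell in MYC-OE (-0.19, adjusted p = 0.00635) and SRSF3-OE (-0.20, adjusted p = 0.0461). With the GC trend removed FDPS was no longer called in SRSF2-OE (adjusted p = 0.0773) or SRSF3-OE (adjusted p = 0.196). MVD, the decarboxylase, was called in no comparison with a control in edgeR with TMM scaling, all libraries and no GC correction. Without the libraries that stand apart it was lower in 3xSR (-0.67, against -0.48 with all) and higher in SRSF2-OE (0.62 against 0.10) and SRSF7-OE (1.04 against 0.32). It was also called lower in 3xSR with the GC trend removed (-0.20) and by DESeq2. With the GC trend removed it was not called in SRSF2-OE or SRSF7-OE. Its 1xCtrl libraries were at 18.1, 37.2 and 13.7 CPM, and its transcript GC content is 63.7%.

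In the sterol arm 5 of 11 genes were higher and none lower in MYC-OE (18.0% and 17.3% of all genes). In SRSF2-OE 4 of 11 were higher and none lower (11.6% and 11.9%). In SRSF3-OE 3 were lower and 1 higher (14.1% and 15.0%). TM7SF2, a sterol C14 reductase, had the highest member fold change in MYC-OE. It was at 32.6, 35.4 and 32.0 CPM against 23.4, 15.7 and 21.8 CPM in 3xCTL (0.72, SE 0.12, adjusted p = 0.00113), and all MYC-OE libraries lay above the control. The difference was 0.58 with the GC trend removed and 0.56 without 3xCTL replicate 2. In 3xSR the gene was at -0.08 and not called, but it was called higher with the GC trend removed (0.20) and lower without 3xCTL replicate 2 (-0.23, adjusted p = 0.00722). In SRSF3-OE it was lower (-0.60, adjusted p = 0.0257), a call lost without any 1 SRSF3-OE library (adjusted p up to 0.107). In SRSF7-OE it was at 34.35, 27.1 and 34.76 CPM against 18.47, 29.55 and 17.4 CPM in 1xCtrl and was not called. It was called higher there with the GC trend removed, by DESeq2 and limma-voom, with upper-quartile scaling and without 1xCtrl replicate 2.

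FDFT1, the squalene synthase at the entry to the sterol arm, was called in 4 comparisons. It was at 272, 260.1 and 266 CPM in MYC-OE against 229, 229 and 218 CPM (0.24, SE 0.05, adjusted p = 0.00301). In the second table it was at 274, 272 and 263 CPM in SRSF7-OE against 215, 195 and 222 CPM (0.35, SE 0.06, adjusted p = 0.00183). Both lines lay above their controls in all libraries. It was also higher in SRSF2-OE (0.27, adjusted p = 0.00499) and lower in SRSF3-OE, at 189, 181 and 189 CPM (-0.18, adjusted p = 0.0368). SQLE, the epoxidase that follows, was higher in SRSF2-OE alone among the calls (0.28, adjusted p = 0.0143).

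NSDHL and EBP, which act in the removal of the C4 methyl groups and in the shift of the ring double bond, were the other sterol genes that rose in SRSF2-OE. NSDHL was at 64.4, 60.5 and 61.9 CPM against 46.2, 43.9 and 47.2 CPM (0.44, SE 0.06, adjusted p = 0.000206). EBP was at 127, 137 and 141 CPM against 106, 95.4 and 95.4 CPM (0.45, SE 0.06, adjusted p = 0.000291). No SRSF2-OE library reached down to the control range for either gene. NSDHL was the single higher member in SRSF3-OE, at 54.4, 50.4 and 53.5 CPM (0.20, adjusted p = 0.0204), a call lost without 1xCtrl replicate 1 or 3 or SRSF3-OE replicate 1 or 3 (adjusted p up to 0.205). EBP in MYC-OE (0.16, adjusted p = 0.0419) was lost without 3xCTL replicate 1 or any MYC-OE library (adjusted p up to 0.157).

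HSD17B7, a sterol ketoreductase, and MSMO1, a C4 methyl oxidase, were higher in both lines of the first table. HSD17B7 was at 39.9, 40.6 and 37.4 CPM in MYC-OE, 34.2, 34.0 and 35.3 CPM in 3xSR and 28.9, 32.3 and 30.2 CPM in 3xCTL, 3 ranges that did not overlap. Its log2 fold changes were 0.37 (adjusted p = 0.000344) and 0.18 (adjusted p = 0.0319), and the second call held in 10 of 18 settings and ended with the GC trend removed and without 3xCTL replicate 1 or 3 or any 3xSR library (adjusted p up to 0.138). In SRSF3-OE it fell (-0.32, adjusted p = 0.00903). HSD17B7 has a near-identical pseudogene that held 14.9% to 23.1% of the counts of the pair, so its level depends on how shared reads were assigned.

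MSMO1 was at 206, 197 and 199 CPM in 3xSR and 201, 208 and 173 CPM in MYC-OE against 159, 176 and 164 CPM in 3xCTL (0.27, adjusted p = 0.0113, and 0.22, adjusted p = 0.0248). MYC-OE replicate 3 overlapped the control. Without 3xCTL replicate 1 neither was called (adjusted p = 0.0559 for 3xSR), and in MYC-OE the call also ended without 3xCTL replicate 3 or MYC-OE replicate 1 or 2 (adjusted p up to 0.120). LSS, CYP51A1, SC5D and DHCR7, the cyclase, the C14 demethylase, the C5 desaturase and the C7 reductase, were called in no comparison with a control in edgeR with TMM scaling, all libraries and no GC correction. CYP51A1 shares exons with 2 annotated genes on its strand, which held at most 1.56% of a pair's counts. Without 3xCTL replicate 2, LSS was lower in 3xSR (-0.50) and MYC-OE (-0.41), against -0.35 and -0.25 with all libraries. LSS in SRSF2-OE was 0.00 with all libraries and 0.25 without the libraries that stand apart (adjusted p = 0.0173), and in SRSF7-OE 0.10 and 0.45. LSS was called lower in MYC-OE (-0.26) and SRSF3-OE (-0.26) with the GC trend removed, and by DESeq2 in 3xSR and SRSF3-OE. With the GC trend removed it was not called in 3xSR, SRSF2-OE or SRSF7-OE. SC5D and DHCR7 were each called under some alternative in 3xSR and SRSF3-OE, and CYP51A1 under none.

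In the fatty acid arm 5 of 7 genes were lower and none higher in SRSF3-OE (14.1% and 15.0% of all genes). The 3 largest of these differences were in desaturases. FADS2, the delta-6 desaturase of polyunsaturated fatty acids, was at 75.8, 70.6 and 73.5 CPM against 136, 146 and 114 CPM in 1xCtrl (-0.85, SE 0.08, adjusted p = 8.05e-06). FADS1, the delta-5 desaturase beside it on chromosome 11, was at 112, 109 and 111 CPM against 200.3, 171 and 189.7 CPM (-0.75, SE 0.07, adjusted p = 9.43e-06). SCD, the delta-9 desaturase that makes oleate, was at 1700, 1554 and 1529 CPM against 2707, 2268 and 2595 CPM (-0.66, SE 0.08, adjusted p = 4.84e-05). All 3 genes were lower in every SRSF3-OE library than in any control library, and with the GC trend removed they stood at -0.70, -0.72 and -0.69.

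FADS1 (chr11:61799625-61829318, minus strand) and FADS2 (chr11:61792980-61867354, plus strand, both GRCh38 as in GENCODE release 29) share 490 exon bases on opposite strands, where reads of the pair cannot be told apart if strand was not used. FADS2 was the only member called in all 5 comparisons with a control. In 3xSR it was at 105, 116 and 104 CPM and in MYC-OE at 139, 147 and 138 CPM, against 176, 144 and 178 CPM in 3xCTL (-0.62, adjusted p = 0.000133, and -0.23, adjusted p = 0.0403). The 3xSR libraries all lay below the control, while MYC-OE overlapped 3xCTL replicate 2. In SRSF2-OE it was at 105, 95.3 and 100.4 CPM (-0.40, adjusted p = 0.00319), and in SRSF7-OE at 168, 161 and 158 CPM (0.30, adjusted p = 0.0212), below and above all of 1xCtrl.

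The MYC-OE call of FADS2 held in 9 of 18 settings and ended without 3xCTL replicate 1 or 3 or any MYC-OE library (adjusted p up to 0.163). Its SRSF7-OE call held in 11 of 18 and ended without 1xCtrl replicate 1 or 3 or any SRSF7-OE library (adjusted p up to 0.170). In the other 3 lines the call held in all 18. FADS1 was lower in 3xSR, at 162, 166 and 166 CPM against 224, 253 and 239 CPM (-0.54, SE 0.05, adjusted p = 2.06e-05), and in SRSF2-OE (-0.25, adjusted p = 0.0225). SCD was lower in SRSF2-OE, at 1952, 1990 and 2038 CPM (-0.34, adjusted p = 0.00708), and differed from 3xCTL by -0.05 in 3xSR without a call.

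**Figure D3:**
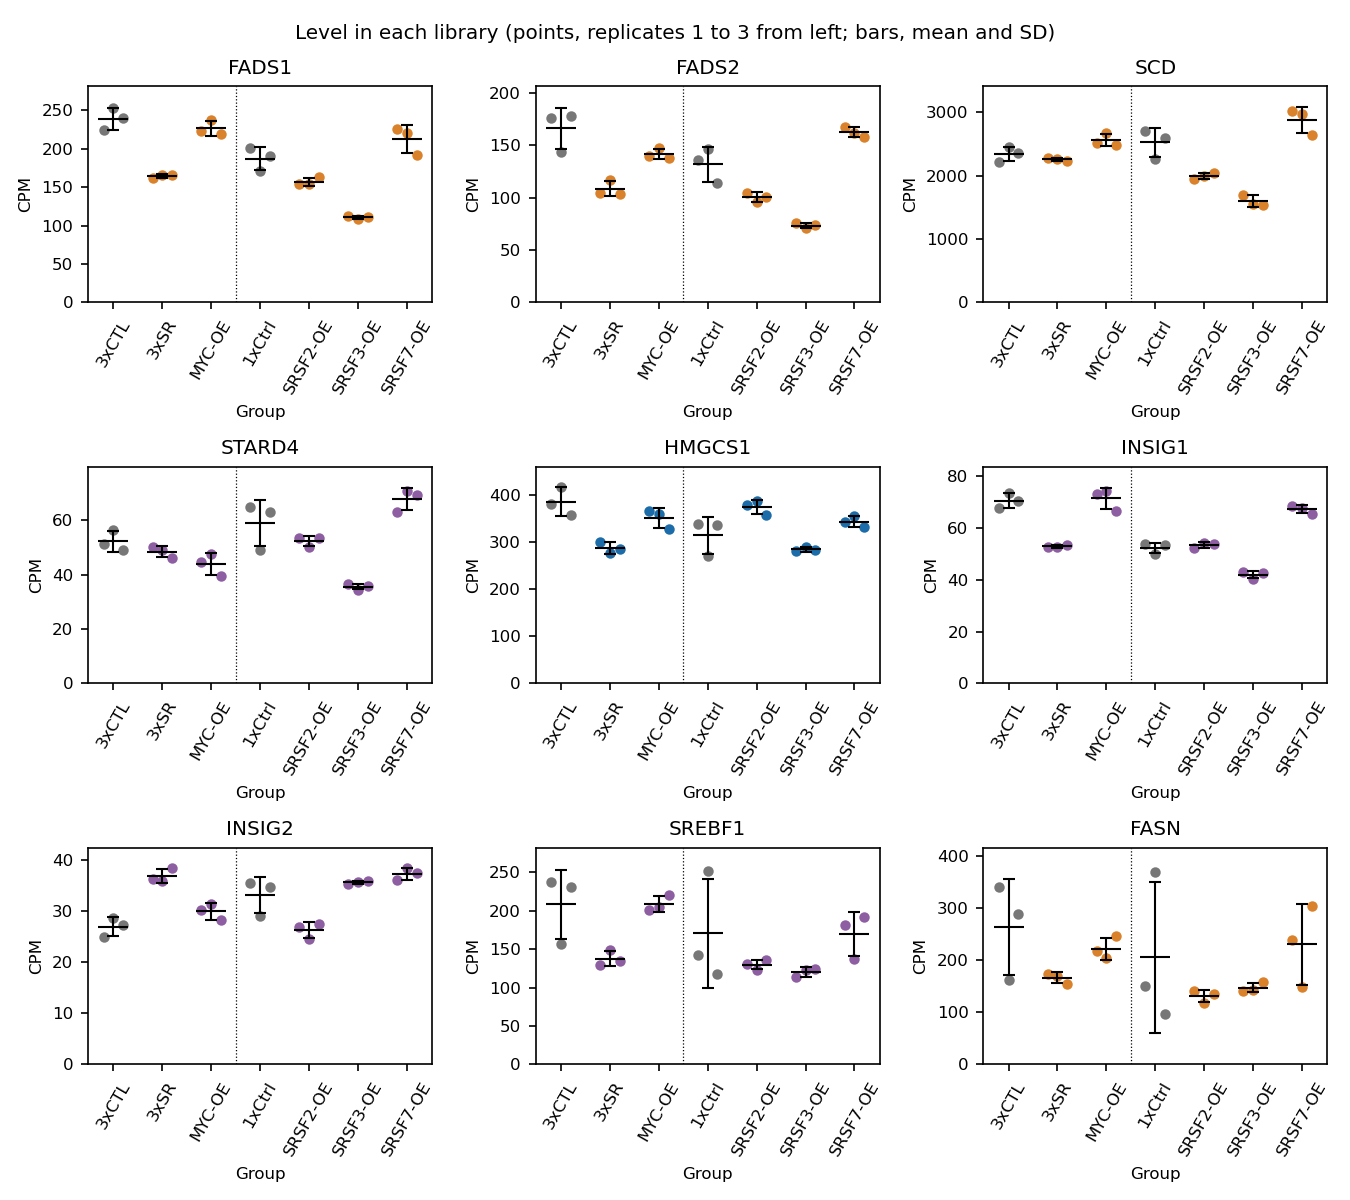
Points are CPM in each library and bars the group mean and SD (n = 3) for 9 members, grey for controls and coloured by role otherwise, with the groups of the first table left of the dotted line and those of the second right of it. FADS1, FADS2, SCD, STARD4 and INSIG1 are lowest in SRSF3-OE among the second table's groups, and FASN and SREBF1 spread widest in the controls.

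ACLY, which makes cytosolic acetyl-CoA from citrate, was lower in 3xSR (-0.23, adjusted p = 0.00588) and higher in SRSF2-OE (0.26, adjusted p = 0.00671) and SRSF7-OE (0.19, adjusted p = 0.0481). The SRSF2-OE call ended without 1xCtrl replicate 1 or 3 or SRSF2-OE replicate 1 or 2, and the SRSF7-OE call, which held in 6 of 18 settings, without 1xCtrl replicate 1 or 3 or any SRSF7-OE library (adjusted p up to 0.108 and 0.289). ACACA, the acetyl-CoA carboxylase, was higher in MYC-OE, at 209, 208 and 210.1 CPM against 184, 188 and 184 CPM (0.18, adjusted p = 0.00719), and lower in SRSF3-OE (-0.21, adjusted p = 0.0481, a call held in 14 of 18 settings). ELOVL6, which elongates palmitate, was lower in SRSF2-OE (-0.27, adjusted p = 0.0249) and SRSF3-OE (-0.23, adjusted p = 0.0424) and higher in MYC-OE (0.17, adjusted p = 0.0411). The SRSF3-OE libraries overlapped 1xCtrl for both ACACA and ELOVL6. The MYC-OE call of ELOVL6 ended without 3xCTL replicate 1 or 3 or any MYC-OE library (adjusted p up to 0.133).

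FASN was called in no comparison with a control in edgeR with TMM scaling, all libraries and no GC correction, with SEs of its log2 fold change from 0.25 to 0.45. It was -0.67 in 3xSR (adjusted p = 0.0934) and -0.25 in MYC-OE, and -0.92 and -0.50 without 3xCTL replicate 2 (adjusted p = 3.94e-05 and 0.00201). With every library kept it was called lower with the GC trend removed in 3xSR (-0.34, adjusted p = 0.0387) and MYC-OE (-0.34, adjusted p = 0.0285), and by DESeq2 in 3xSR (adjusted p = 0.0272). It was -0.48 in SRSF3-OE and -0.65 in SRSF2-OE with all libraries, and 0.24 and 0.08 without the libraries that stand apart, with no call in either setting. In SRSF7-OE it was 0.17, and 1.15 without them (adjusted p = 0.00783). With every library kept and the GC trend removed, FASN was not called in SRSF7-OE.

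Set directly against SRSF3-OE, SRSF7-OE had 20 of 30 members higher and 1 lower. The background was 17.3% higher and 17.8% lower. Counts were 22 and 0 with the GC trend removed (20.4% and 21.8% of all genes) and 24 and 1 without the libraries that stand apart (21.9% and 19.0%). TM7SF2 (log2 fold change 1.15, adjusted p = 0.000472), FADS2 (1.15, adjusted p = 3.88e-07), FADS1 (0.94, adjusted p = 8.74e-07) and STARD4 (0.93, adjusted p = 5.68e-06) differed most. The libraries of the 2 lines did not overlap for any of these 4 genes. CYP51A1 was the lower member (-0.22, adjusted p = 0.0370), and no member was lower without SRSF3-OE replicate 1 or 3 or any SRSF7-OE library. By role, 5 of 7 mevalonate, 6 of 11 sterol, 3 of 5 regulator and transport and 6 of 7 fatty acid genes were higher. SQLE, NSDHL and EBP differed by -0.02 (SE 0.07), -0.07 (SE 0.06) and 0.01 (SE 0.06).

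**Figure D4:**
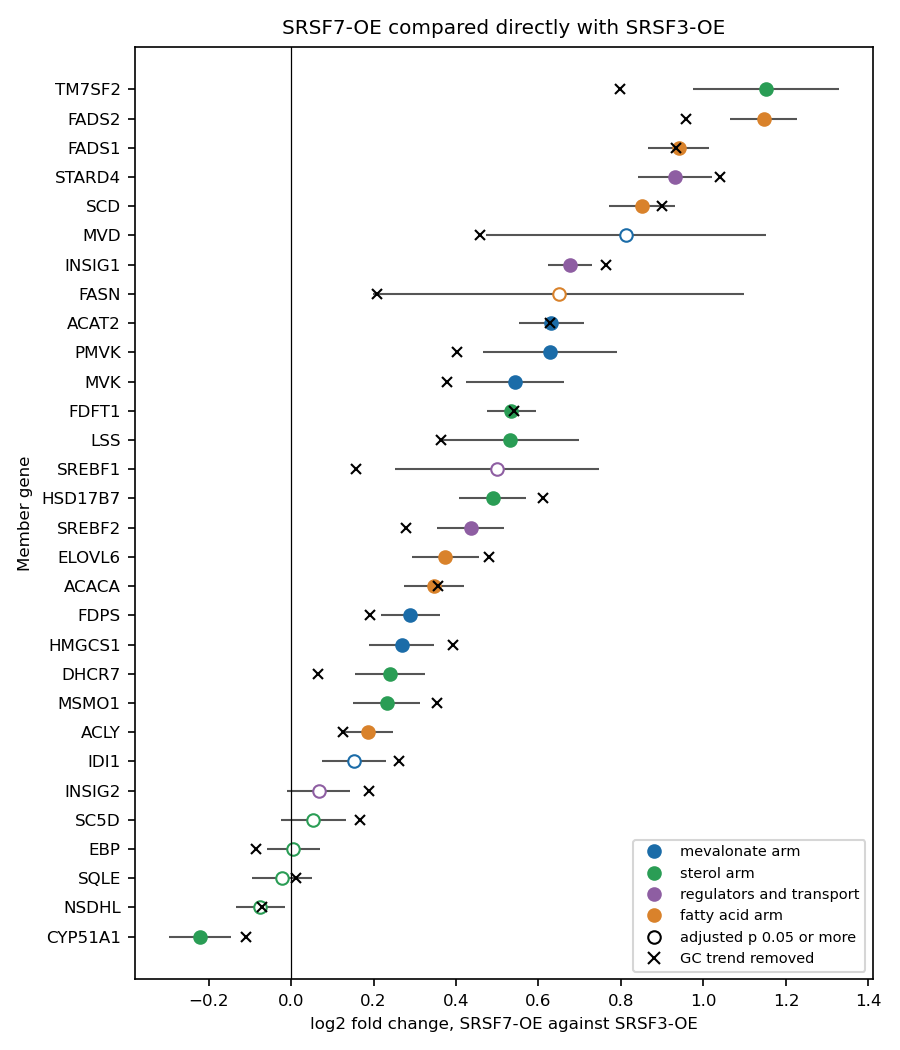
Points give the log2 fold change of each member in SRSF7-OE against SRSF3-OE with its SE as a bar, filled where the edgeR adjusted p was under 0.05, coloured by role, and crosses the value with the GC trend removed. TM7SF2 and FADS2 lie highest, above 1, and CYP51A1 is the one filled point below 0.

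SRSF3-OE against SRSF2-OE gave 1 member higher and 17 lower (14.1% and 12.6% of all genes). INSIG2 was the higher one (0.44, adjusted p = 0.00101), and ACAT2 (-0.78, adjusted p = 1.58e-05), TM7SF2 (-0.63) and STARD4 (-0.56) were the lowest. SRSF7-OE against SRSF2-OE gave 9 higher and 3 lower (12.8% and 11.5%). Of the 9, 4 were regulators or transport genes and 5 fatty acid genes, led by FADS2 (0.70), SCD (0.53) and INSIG2 (0.50), and the 3 lower were the sterol genes EBP (-0.42), NSDHL (-0.31) and SQLE (-0.24). With the GC trend removed, and likewise without the libraries that stand apart, the sterol arm had 2 higher and 3 lower, and without those libraries the mevalonate arm had 2 higher and 2 lower. All genes gave 4346 and 3996 of 24362 with the trend removed, and 4498 and 3253 of 24854 without those libraries. MYC-OE against 3xSR gave 15 higher and 2 lower (17.3% and 17.6%). TM7SF2 (0.79), MVD (0.63) and SREBF1 (0.60) were the highest of these, each GC-rich and each smaller with the GC trend removed (0.39, 0.22 and 0.24). FADS1 (0.46, and 0.46 with the trend removed) and INSIG1 (0.43 and 0.51) were not smaller. INSIG2 (-0.30) and SC5D (-0.18) were the lower ones. With the GC trend removed they stood at -0.04 and -0.01 and were not called, and FDPS was the 1 lower member (-0.25, adjusted p = 0.000883).

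The 3xSR effect was also set against each single effect, each measured from its own control, in a joint edgeR fit of all 21 libraries. Against the SRSF3-OE effect 6 members were higher and 1 lower (10.8% and 7.02% of all genes tested), against the SRSF2-OE effect 2 and 11 (13.3% and 8.53%), and against the SRSF7-OE effect 1 and 11 (13.6% and 10.9%). HMGCS1 differed by -0.67 from the SRSF2-OE effect (adjusted p = 8.12e-05) and by -0.54 from the SRSF7-OE effect (adjusted p = 0.000560), but by -0.27 from that of SRSF3-OE (adjusted p = 0.0794). The mevalonate arm made up 4 of the 11 lower members against SRSF2-OE and 4 of the 11 against SRSF7-OE. SCD (0.62) and STARD4 (0.64), called lower in SRSF3-OE, were among the 6 higher against SRSF3-OE. The tables have separate controls, so a difference between tables that acts on a line and not on its control cannot be told apart from the line.

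A wider list of 67 lipid genes outside the 30 gave the setting. Of these, 15 were higher and 11 lower in 3xSR, 16 and 9 in MYC-OE, 11 and 5 in SRSF7-OE, 14 and 15 in SRSF3-OE, and 6 and 18 in SRSF2-OE. The shares over all genes are 15.3% and 13.7% in 3xSR, 18.0% and 17.3% in MYC-OE, 9.03% and 8.26% in SRSF7-OE, 15.0% and 14.1% in SRSF3-OE, and 11.6% and 11.9% in SRSF2-OE. After GC correction the counts were 16 and 16, 21 and 11, 20 and 9, 19 and 19, and 8 and 21, in the same order. ABCA1, the exporter of cholesterol to apolipoprotein, was at 18.0 ± 0.643 CPM in 3xSR against 4.80 ± 0.230 in 3xCTL (SD, n = 3, log2 fold change 1.91) and at 33.2 ± 2.49 CPM in SRSF3-OE against 14.1 ± 1.66 in 1xCtrl (1.23). It was also higher in MYC-OE (1.07). STARD5, a sterol-binding relative of STARD4, was lower in 3xSR (-0.76), SRSF3-OE (-1.06) and SRSF2-OE (-0.43). ACSL5, which activates long-chain fatty acids, was higher in 3xSR (0.92), MYC-OE (1.18) and SRSF7-OE (0.59). DGAT2, which makes triglyceride, was higher in all 5 lines, most in MYC-OE (1.14) and least in SRSF3-OE and SRSF7-OE (0.34 each). Of 16 genes for sterol uptake, trafficking, esterification and efflux, 1 was higher and 8 lower in SRSF2-OE, among them ABCG1 (-0.81), which was higher in 3xSR (1.21) and MYC-OE (1.27). Of the 8 genes of the SREBP processing machinery, 4 were lower in SRSF2-OE and none higher, and 3 were higher and 2 lower in MYC-OE.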

How the data were processed

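RNA was measured in 21 polyA-selected, stranded libraries, 3 in each of 7 groups. The values used are whole-number read counts per Ensembl gene, deposited by the authors in 2 tables. Per the submitters' processing notes, Trimmomatic 0.39, STAR and StringTie 2.1.3b were used with GRCh38.p13; how the counts were derived, their annotation and their strand setting are not given in the sources used here. Totals ranged from 143269192 to 303323552 counts a library.

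Each table was fitted with all its groups in edgeR 4.0.16 (R 4.3.3): filterByExpr (minimum count 10, minimum total 15), TMM scaling, a robust quasi-likelihood fit and test, and Benjamini-Hochberg adjustment over all genes tested, called under 0.05. A joint fit of all 21 libraries gave differences between effects. Scripts were tested on simulated data. Transcript GC content, gene positions and exon overlaps came from GENCODE 29, and gene symbols from a separate list of gene names. The GC trend was removed with an offset per library over 50 GC bins. Alternatives included DESeq2 1.42.0 and limma 3.58.1, other scalings and filters, a replicate block, and leaving out each library. Leaving out together the libraries that stand apart, and the GC correction of the joint fit, were added after seeing the data. The labels do not say that replicates are separate cultures, so p-values measure only the spread between these samples.

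All 30 members are named. Fuller values are given for the regulators INSIG1, INSIG2, SREBF1 and SREBF2, for members called one way in 4 or more control comparisons, and for the 3 highest and 3 lowest called members of each. From the wider lists, the 2 highest and 2 lowest called genes of each comparison with a mean of at least 5 CPM could be named. The members and lists were chosen with earlier results of these data known.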

Additional observations from a re-analysis of the deposited data

Results flagged for a closer look

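For 9 members the 3xSR effect, measured from 3xCTL, differed from the effect of a single line, measured from 1xCtrl, by the joint edgeR test of that difference. Against the libraries labelled SRSF2-OE, the difference on the log2 scale was 0.79 for INSIG2, -0.67 for HMGCS1 and -0.57 for NSDHL. Against SRSF3-OE it was 0.64 for STARD4, 0.62 for SCD and 0.52 for HSD17B7. Against SRSF7-OE it was -0.91 for FADS2, -0.77 for INSIG1 and -0.72 for FADS1. These are the 3 members with the widest called difference against each line.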

How the results depend on the processing

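Of the 56 calls against a control, 32 held under all 18 alternatives, and 53 of the 94 results not called were called under at least 1. The cause was not tested. For 3xSR and MYC-OE against 3xCTL, the settings without 3xCTL replicate 2 and without the libraries that stand apart are the same fit. Both are counted among the 18.

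Leaving out 1 library at a time gave 1 to 4 higher and 6 to 14 lower members in 3xSR, 4 to 9 higher and 1 to 8 lower in MYC-OE, 0 to 1 higher in SRSF3-OE and 4 to 12 higher in SRSF7-OE. Over all genes these were 2661 to 4637 and 2204 to 4567, 3349 to 4643 and 3206 to 4366, 2427 to 4094, and 1351 to 4110. The genes tested numbered 23731 or more. MYC-OE against 3xSR had 1 member lower in each case (3083 to 3362 of all genes). SRSF7-OE against SRSF3-OE had 0 to 1 lower (3356 to 3874 of all genes). For the 3xSR effect, leaving out 1 library gave 1 to 5 members higher than the SRSF2-OE effect (2608 to 4080 of all genes). It gave 4 to 10 higher and 1 to 3 lower than the SRSF3-OE effect (2112 to 3253 and 1422 to 2882 of all genes). Against the SRSF7-OE effect, 0 to 3 were higher (2508 to 4231 of all genes). The highest counts came without 3xCTL replicate 2 (14 lower in 3xSR, 8 lower in MYC-OE) and without 1xCtrl replicate 2 (12 higher in SRSF7-OE).

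With the GC trend removed, 8 were lower in MYC-OE, 1 lower in MYC-OE against 3xSR, 17 higher in SRSF7-OE, 2 higher in SRSF3-OE against SRSF2-OE and 0 lower in SRSF7-OE against SRSF3-OE. Over all genes these were 4897 and 4305 of 23160, and 3670, 4527 and 5304 of 24362. The 3xSR effect then had 4 higher than SRSF2-OE, 10 higher and 3 lower than SRSF3-OE, and 0 higher and 17 lower than SRSF7-OE. Of all 25013 genes in that fit, 3801, 3480 and 3589, and 3896 and 3897 were. Without the libraries that stand apart, 14 were lower in 3xSR, 8 lower in MYC-OE, 4 lower in MYC-OE against 3xSR, 14 higher in SRSF7-OE, and 15 higher and 5 lower in SRSF7-OE against SRSF2-OE. Over all genes these were 4567, 4366 and 4765 of 23926, and 4163, 4498 and 3253 of 24854.

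Total counts alone gave 5 lower in MYC-OE, 0 higher in SRSF3-OE, 0 lower in SRSF7-OE against SRSF3-OE, and for the 3xSR effect 4 higher than SRSF2-OE and 10 higher than SRSF3-OE. Over all genes these were 4670 of 23160, 2296 and 3076 of 24362, and 3756 and 3557 of 25013. Upper-quartile scaling gave 0 higher in SRSF3-OE (2546 of 24362 genes) and 1 higher than the SRSF2-OE effect (3062 of 25013). RLE scaling gave 2 lower than the SRSF3-OE effect (1998 of 25013). With no filter, 1 was lower in MYC-OE against 3xSR, 0 higher in SRSF3-OE, 0 lower in SRSF7-OE against SRSF3-OE and 0 higher than the SRSF7-OE effect. Over all genes these were 3485 of 37193, 2983 and 3616 of 39038, and 2791 of 40945. With only the groups compared, 4 were higher in MYC-OE (3740 of 22582 genes), 0 higher in SRSF3-OE (2218 of 22536) and 2 higher in SRSF7-OE (1141 of 23067).

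Total counts alone moved the median of all genes in SRSF3-OE from -0.03 to -0.14 and the calls from 3666 higher and 3442 lower to 2296 and 4862 (members 0 and 18), and in SRSF7-OE against SRSF3-OE the median from 0.02 to 0.13 and the calls from 4226 and 4343 to 5629 and 3076 (members 21 and 0).

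These results changed sign with a call on the new side: TM7SF2 in 3xSR was 0.20 with the GC trend removed. SREBF1 in MYC-OE ranged from -0.16 (without 3xCTL replicate 2, as without the libraries that stand apart) to 0.11 when 1 library was left out. LSS in SRSF2-OE was 0.25 and SREBF1 in SRSF7-OE 0.53 without the libraries that stand apart.

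The labels do not say whether same-numbered replicates were handled together, and they were treated as unpaired. The correlation of their deviations lay between -0.19 and 0.05. A replicate block gave 8 lower in SRSF3-OE, 0 lower in SRSF7-OE against SRSF3-OE, and for the 3xSR effect 2 lower than SRSF3-OE and 0 higher than SRSF7-OE. Over all genes these were 3051 and 3942 of 24362, and 1607 and 3252 of 25013.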
